A study of Mus musculus with 8 samples.

Results

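Klf2, Klf4, Klf5, Tfcp2l1, Tbx3, Zfp42 and Prdm14 are 7 transcription factor genes of the naive pluripotency network in mouse embryonic stem cells (ESCs). They were taken by name, their symbols were matched to the Ensembl identifiers of the count tables, and all 7 were found among the 52550 genes listed. Messenger RNA was sequenced from control and Dax1-knockout (Dax1KO) ESCs in a pair of media, 2i/LIF and LIF/serum. Each of the 4 groups had 2 libraries, 8 in all. The 2i/LIF medium is serum-free N2B27 with the MEK inhibitor PD0325901, the GSK3 inhibitor CHIR99021 and the cytokine LIF, and LIF/serum is the conventional medium with serum and LIF. All cells were labelled as passage 3 and all were grown on gelatin. Dax1, the product of Nr0b1, is an orphan nuclear receptor of the pluripotency network. It was disrupted with CRISPR/Cas9 around its start codon. The Dax1KO line was derived in 2i/LIF, a single clone served for the functional experiments, and its cells could not be kept through continued passages once moved to LIF/serum. Neither the parental line nor separate cultures for the libraries of a group are given in the sources used here, so p-values measure the spread between these libraries, which may be technical.

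Naive ESCs resemble the epiblast of the early blastocyst, and their state rests on a set of transcription factors that act together around Oct4 and Sox2. LIF signals through JAK and STAT3, and Klf4 and Tfcp2l1 are known targets of this branch. GSK3 inhibition frees beta-catenin, which relieves repression by Tcf7l1 of genes such as Tfcp2l1, and MEK inhibition removes the ERK signal that drives cells out of the naive state. Klf2, Klf4 and Klf5 are Krüppel-like zinc finger activators with overlapping roles, Tfcp2l1 is a grainyhead-related activator, and Tbx3 is a T-box factor linked to Nanog and to primitive endoderm. Zfp42, also known as Rex1, is a zinc finger protein used as a marker of naive cells, and Prdm14 is a PR-domain repressor of FGF receptor and de novo DNA methyltransferase genes.

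The knockout showed in its own gene. In 2i/LIF the control libraries held 456 and 300 Nr0b1 counts and both Dax1KO libraries 0, and in LIF/serum the counts were 5095 and 4689 in control against 14 and 6 in Dax1KO. Total counts lay between 35911384 and 37286251, and levels are given here as CPM, the counts scaled to a common library size after TMM normalization. All 7 genes passed the filter on low counts, with between 784 counts for Prdm14 and 40427 for Tfcp2l1 in a library. In bulk RNA a lower level in each cell and fewer cells with the transcript cannot be told apart.

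In the mm10 build (GRCm38), Klf2 lies at chr8:72319033-72321656 on the forward strand and Klf4 at chr4:55527143-55532466 on the reverse strand. Klf5 lies at chr14:99298691-99315036, Tfcp2l1 at chr1:118627945-118685168 and Tbx3 at chr5:119670669-119684724, all on the forward strand. Zfp42 at chr8:43295063-43306980 and Prdm14 at chr1:13113457-13127163 are on the reverse strand. All 7 are protein-coding. The antisense gene Tbx3os1 overlaps the 5′ end of Tbx3 and had 68 to 445 counts, and since no source says that counting used strand, reads of the pair cannot be told apart there. At 95% identity or more, 495 bases of the longest Zfp42 transcript (26.9%) matched the pseudogene Zfp42-ps1, which was not analysed here, so the Zfp42 counts are uncertain to that extent. Klf2, Klf4, Klf5 and Prdm14 matched no other gene, and Tfcp2l1 matched the small gene Gm23497 within it over 1.4% of its transcript, and Tbx3 matched Tbx3os1 over 2.3%.

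Promoter sequences from RefSeq (GRCm38.p6) were at hand for 4 of the 7 genes, Klf2, Klf4, Tfcp2l1 and Zfp42. They are shown because the set includes Klf2, which fell in Dax1KO cells in both media, and Klf4, which rose in LIF/serum, beside the other members with a window. Each is the 250 bases before the gene's start in RefSeq, from 5′ to 3′ on the strand of the gene. The RefSeq start matches the GENCODE start given above for Tfcp2l1 but not for the others, so the Klf2 window ends just inside the gene and the Klf4 and Zfp42 windows stop just short of it. Klf2 is chr8:72318812-72319061, forward strand, and Klf4 is chr4:55532476-55532725, reverse strand. Capitals mark GGGNGGG, the core of a site for Krüppel-like and SP factors, on either strand.
Klf2: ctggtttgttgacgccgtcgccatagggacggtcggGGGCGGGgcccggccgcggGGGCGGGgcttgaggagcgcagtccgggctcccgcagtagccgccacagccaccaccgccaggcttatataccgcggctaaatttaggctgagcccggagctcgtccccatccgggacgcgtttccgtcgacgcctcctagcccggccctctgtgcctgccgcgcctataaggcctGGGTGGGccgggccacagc
Klf4: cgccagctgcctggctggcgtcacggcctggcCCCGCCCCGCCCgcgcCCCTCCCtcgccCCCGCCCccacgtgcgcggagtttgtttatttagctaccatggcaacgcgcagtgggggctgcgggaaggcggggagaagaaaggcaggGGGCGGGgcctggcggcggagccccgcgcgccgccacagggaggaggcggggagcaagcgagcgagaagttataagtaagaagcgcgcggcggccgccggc

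The Tfcp2l1 window is chr1:118627695-118627944 on the forward strand and the Zfp42 window is chr8:43307010-43307259 on the reverse strand, with the same capitals.
Tfcp2l1: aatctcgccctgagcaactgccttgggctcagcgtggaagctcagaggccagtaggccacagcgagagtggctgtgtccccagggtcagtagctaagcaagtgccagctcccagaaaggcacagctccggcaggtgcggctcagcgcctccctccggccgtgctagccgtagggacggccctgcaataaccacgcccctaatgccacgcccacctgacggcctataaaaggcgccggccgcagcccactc
Zfp42: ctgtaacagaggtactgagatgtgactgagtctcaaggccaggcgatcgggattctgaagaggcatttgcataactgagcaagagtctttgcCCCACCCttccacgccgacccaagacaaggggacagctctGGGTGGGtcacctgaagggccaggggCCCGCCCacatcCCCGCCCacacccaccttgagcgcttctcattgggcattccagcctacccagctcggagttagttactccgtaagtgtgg

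GGGNGGG occurred 3 times upstream of Klf2, 5 times upstream of Klf4, where a pair of matches overlaps, 4 times upstream of Zfp42 and not upstream of Tfcp2l1. It is a common string, present in 44.8% of the 32851 promoter windows of the same length. The other 5 strings searched on both strands had no match in these 4 windows. They were TTCNNNGAA (STAT3, in 7.0% of all windows), AAGGTCA (Esrrb and Nr5a2, 4.1%), CTTTGAT (TCF, 3.2%), GGTGTGA (T-box, 3.3%) and AAGATGG (YY1 and Zfp42, 4.5%). The GC content was 71.2% for Klf2, 74.0% for Klf4, 65.2% for Tfcp2l1 and 58.4% for Zfp42, against a median of 52.4%.

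Levels of different genes were compared as CPM per kb of exon. Zfp42 was the highest of the 7 in every group, with 371 and 324 CPM per kb in control cells in 2i/LIF and 458 and 452 in LIF/serum. Klf2 came second in 3 of the groups, with 218 and 247 in the control in 2i/LIF. In Dax1KO cells in LIF/serum Klf4 (123 and 101) and Klf2 (112 and 97.2) overlapped and could not be ordered. Prdm14 was the lowest in 3 groups, down to 8.77 and 9.11 CPM per kb in Dax1KO cells in LIF/serum. In control cells in 2i/LIF, Prdm14, Klf5 and Tbx3 lay between 28.8 and 38.9 and overlapped. Tfcp2l1 reached 106 and 114 in Dax1KO cells in 2i/LIF, just under Klf4 with 114 and 120, and in control cells in LIF/serum it overlapped Klf5 with 26.7 and 19.6.

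**Figure D1:**
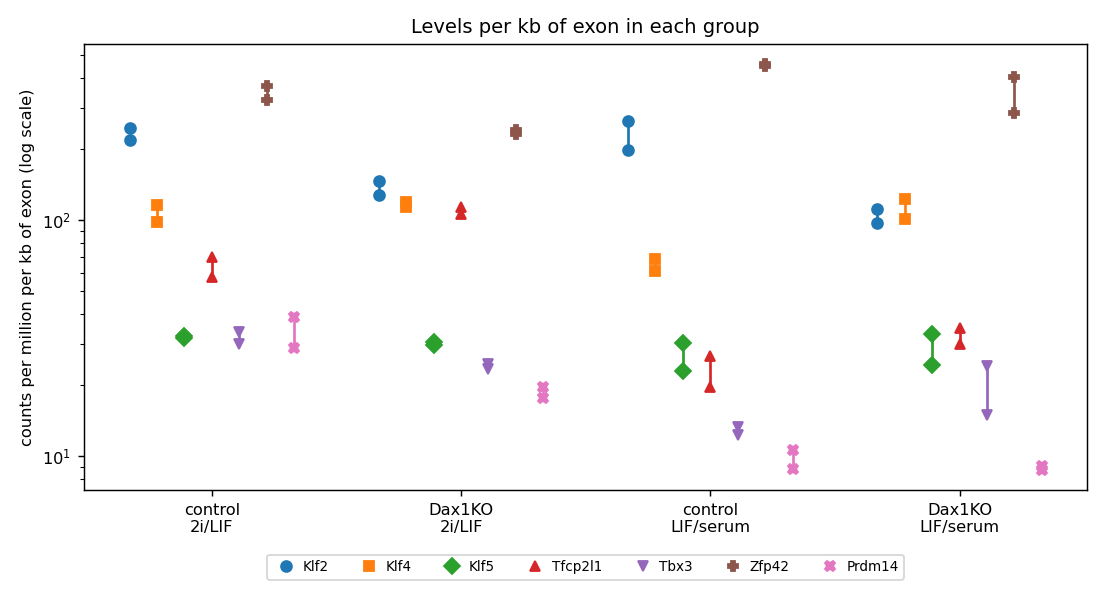
CPM per kb of exon (log scale) of the 7 genes in the 4 groups, with 1 symbol for each library and a line joining the 2 libraries of a group. Zfp42 stands on top in every group, and Tfcp2l1 lies near Klf4 in Dax1KO cells in 2i/LIF but near Klf5 in LIF/serum.

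The Krüppel-like factors gave 3 different patterns. Klf2 had 402 and 456 CPM in control and 236 and 271 in Dax1KO cells in 2i/LIF. The LIF/serum libraries had 368 and 487 CPM in control and 208 and 179 in Dax1KO. All 4 Dax1KO libraries lay below all 4 control libraries. Klf2 fell by 0.76 on the log2 scale in 2i/LIF (SE 0.16, 1.69-fold, adjusted p = 0.0488 edgeR quasi-likelihood test, Benjamini-Hochberg adjusted over 20749 genes). It fell by 1.14 in LIF/serum (SE 0.16, 2.21-fold, adjusted p = 0.00565).

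Klf4, a STAT3 target and reprogramming factor, had 355 and 301 CPM in control and 348 and 365 in Dax1KO cells in 2i/LIF, and these ranges overlapped. In LIF/serum it had 186 and 208 CPM in control and 374 and 307 in Dax1KO, so that both knockout libraries were well above both controls. The change in LIF/serum passed the test (log2 fold change 0.79, SE 0.14, 1.73-fold higher, adjusted p = 0.0107), and that in 2i/LIF was 0.12 (SE 0.14, adjusted p = 0.736). The rise brought Klf4 in LIF/serum to a mean of 341 CPM, beside 328 in control cells in 2i/LIF.

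Klf5, which acts in the blastocyst in both the inner cell mass and the trophectoderm, was the steadiest of the 7. It had 165 and 168 CPM in control and 154 and 158 in Dax1KO cells in 2i/LIF, and 157 and 119 against 172 and 127 in LIF/serum. Its group means spanned 1.21-fold, less than the 1.35-fold between its Dax1KO libraries in LIF/serum. Neither change passed the test, with log2 fold changes of -0.09 (SE 0.17, adjusted p = 0.858) and 0.11 (SE 0.17, adjusted p = 0.711).

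**Figure D2:**
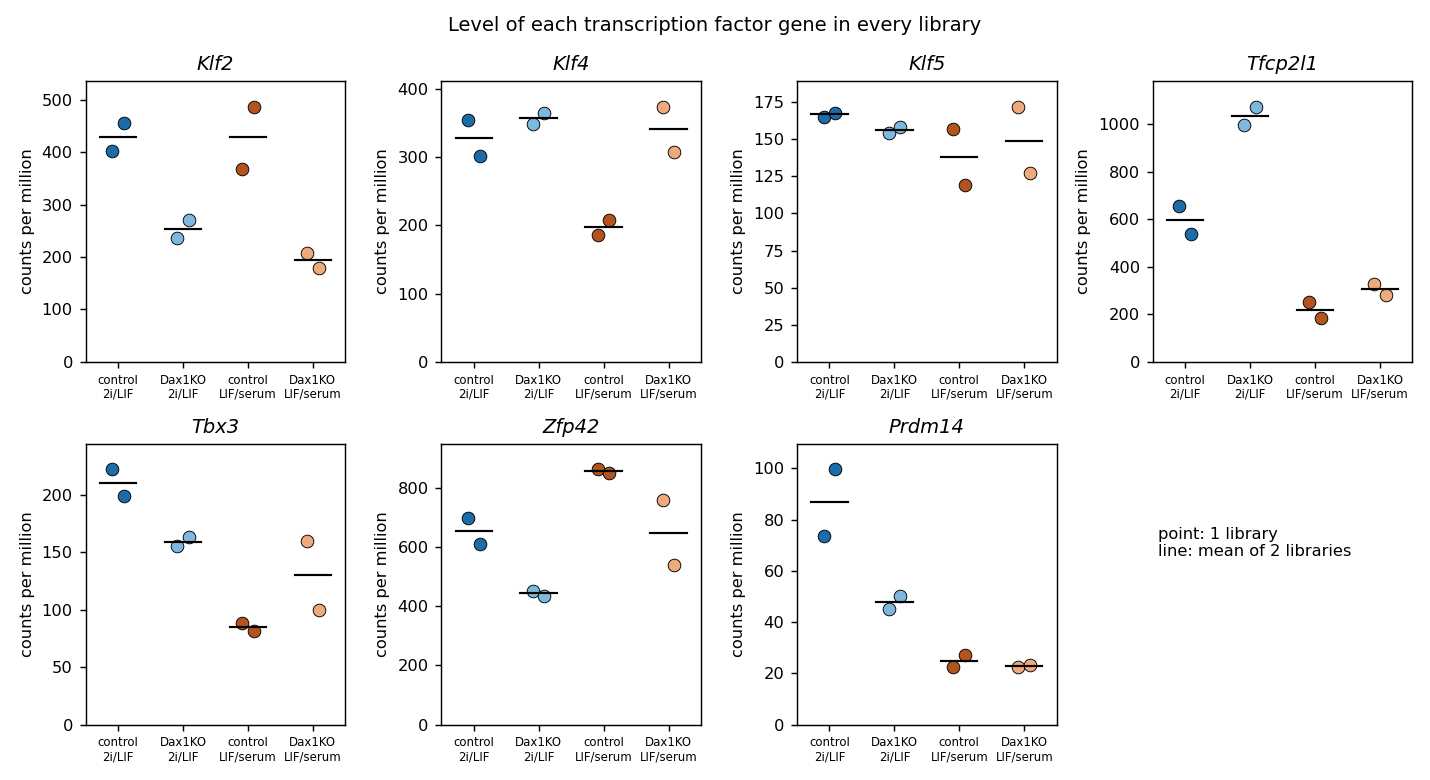
CPM of each of the 7 genes in every library, with 1 point for each library and a line at the mean of the 2 libraries of a group. Klf2 is lower in both Dax1KO groups, Klf4 is lowest in control cells in LIF/serum, and Tfcp2l1 and Prdm14 are higher in 2i/LIF than in LIF/serum in either cell line.

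Tfcp2l1 was the member with the widest range, 4.74-fold between group means. It had 658 and 540 CPM in control and 998 and 1075 in Dax1KO cells in 2i/LIF, the highest level of the gene in any group. Levels in LIF/serum were 252 and 185 CPM in control and 328 and 281 in Dax1KO. The knockout libraries lay above the controls in both media without overlap. The log2 fold change in 2i/LIF was 0.79 (SE 0.17, 1.73-fold, adjusted p = 0.0512), just above the threshold of 0.05, and it was 0.48 in LIF/serum (SE 0.17, adjusted p = 0.101). DESeq2 called both (adjusted p = 0.000609 and 0.0397).

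Tbx3 was the member whose Dax1KO libraries stood on opposite sides of the controls in the media. It had 222 and 199 CPM in control and 155 and 163 in Dax1KO cells in 2i/LIF. In LIF/serum it had 87.9 and 81.5 CPM in control and 160 and 99.5 in Dax1KO. The latter pair spread over 1.61-fold, the widest gap between libraries of a group for any member. Neither change passed the test (-0.40, SE 0.20, adjusted p = 0.352 in 2i/LIF, and 0.62, SE 0.20, adjusted p = 0.0801 in LIF/serum). Without Dax1KO replicate 2 the estimate in LIF/serum was 0.92 (adjusted p = 0.0267), and without replicate 1 it was 0.23 (adjusted p = 0.365). The antisense Tbx3os1 had 445 and 277 counts in control and 293 and 243 in Dax1KO cells in 2i/LIF, against 68 and 93 and then 164 and 120 in LIF/serum, and its part in the Tbx3 counts was not tested.

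Zfp42 and Prdm14 were lower in Dax1KO cells in 2i/LIF. Zfp42 had 698 and 609 CPM in control and 451 and 435 in Dax1KO there. In LIF/serum it had 862 and 850 in control, the highest of the 4 groups, and 757 and 539 in Dax1KO. The groups did not overlap in either medium, but neither change passed the test (-0.56, SE 0.16, adjusted p = 0.113, and -0.40, SE 0.16, adjusted p = 0.134). Without Dax1KO replicate 1 the change in LIF/serum was -0.67 (adjusted p = 0.0405), and without replicate 2 it was -0.17 (adjusted p = 0.514).

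Prdm14, which is also needed for germ cell specification, had 73.8 and 99.7 CPM in control and 45.2 and 50.3 in Dax1KO cells in 2i/LIF. Levels in LIF/serum were 22.6 and 27.1 CPM in control and 22.5 and 23.4 in Dax1KO. The groups were separate in 2i/LIF and overlapped in LIF/serum. In 2i/LIF the gene fell by 0.86 on the log2 scale (SE 0.17, 1.82-fold, adjusted p = 0.0412), the largest change of a member there in the reported fit. This rank moved with single libraries. Without control replicate 2 in 2i/LIF Prdm14 had -0.62, beside 0.67 for Tfcp2l1 and -0.65 for Klf2. The Prdm14 change in LIF/serum was -0.12 (SE 0.17, adjusted p = 0.699).

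**Figure D3:**
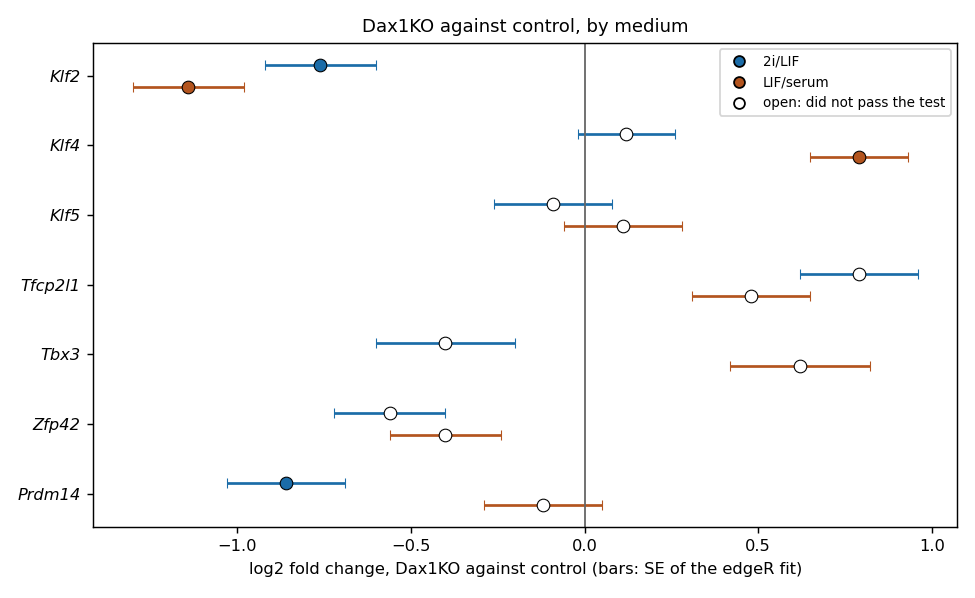
Log2 fold change of Dax1KO against control for each gene in both media, with bars of 1 SE of the edgeR fit and open points for changes that did not pass the test. Filled points are Klf2 in both media, Klf4 in LIF/serum and Prdm14 in 2i/LIF.

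Over the 7 genes, 2 passed the test in 2i/LIF, both lower, and 0 higher (28.6% of the members), beside 3.16% of all tested genes, of which 1.51% were higher and 1.65% lower. In LIF/serum 1 was higher and 1 lower (28.6%), beside 14.7% of all tested genes, 8.87% higher and 5.78% lower. Dax1KO and control libraries did not overlap for 6 members in 2i/LIF and 5 in LIF/serum, where 51.8% and 57.5% of all tested genes did not overlap. The median log2 fold change of the members was -0.40 in 2i/LIF and 0.11 in LIF/serum, beside -0.01 and 0.01 over all tested genes. DESeq2 called 4 members in each medium, adding Tfcp2l1 and Zfp42 in 2i/LIF and Tfcp2l1 and Tbx3 in LIF/serum. It called 6.30% of all genes with an adjusted p in 2i/LIF (1277) and 20.2% in LIF/serum (3716).

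The calls in 2i/LIF were close to the threshold. Without the filter on low counts neither held (adjusted p = 0.118 for Klf2 and 0.0999 for Prdm14), Klf2 had 0.0509 with RLE factors and Prdm14 0.0666 in a fit of 2i/LIF alone. Leaving out any of the 4 libraries in 2i/LIF, or either Dax1KO library in LIF/serum, left 0 of the 7 genes called, with adjusted p between 0.0750 and 0.278 for Klf2 and between 0.0554 and 0.242 for Prdm14, and without control replicate 2 in LIF/serum Prdm14 had 0.0508. Tfcp2l1, which did not pass in 2i/LIF as reported, passed under 7 of the 15 alternatives, beside 6 each for Klf2 and Prdm14. These included the fits without control replicate 1 or 2 in LIF/serum (adjusted p = 0.0320 and 0.0307), with at least 10 counts in every library (0.0345) and of 2i/LIF alone (0.0392). In LIF/serum the Klf2 call held under all 15 alternatives (adjusted p from 1.30e-08 to 0.0499), and the Klf4 call under 14, the exception being the fit without Dax1KO replicate 1 (0.65, adjusted p = 0.0529). Tfcp2l1 passed there without control replicate 1 (0.72, adjusted p = 0.0434), and without control replicate 2 it had 0.26 (adjusted p = 0.328).

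**Figure D4:**
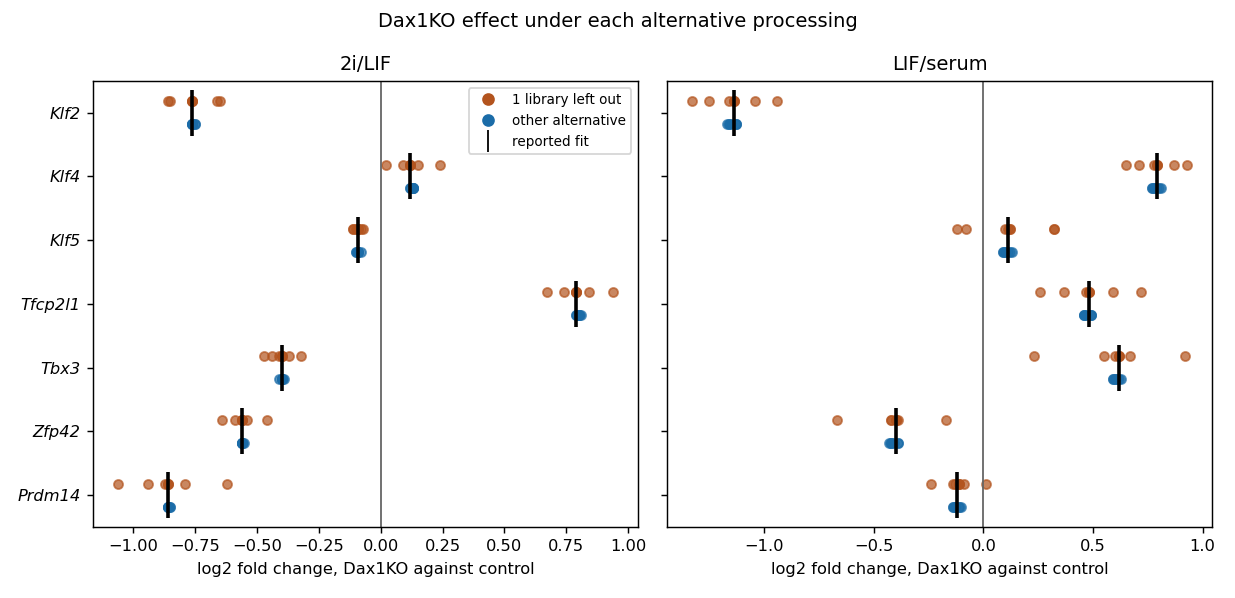
Log2 fold change of Dax1KO against control for each gene in both media (left and right panels), with a black mark for the reported fit and points for fits that left out 1 library or changed another step. Klf2 stays below 0 and Tfcp2l1 above 0 in all of them, and Tbx3 in LIF/serum runs from 0.23 to 0.92 as libraries are left out.

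The effect of the knockout was next compared between the media, as the difference of the log2 fold changes (LIF/serum minus 2i/LIF). By edgeR 0 of the 7 genes passed, beside 2.87% of all tested genes, with 3 at an unadjusted p under 0.05, as were 19.1% of all tested genes. DESeq2 called 2 of the 7, and 6.81% of all genes to which it gave an adjusted p. Tbx3 had the largest difference in the reported fit, 1.02 (SE 0.29, adjusted p = 0.107), with both Dax1KO libraries below both controls in 2i/LIF and above them in LIF/serum. Klf4 differed by 0.67 (SE 0.19, adjusted p = 0.114) and Prdm14 by 0.75 (SE 0.24, adjusted p = 0.149). DESeq2 called Tbx3 (adjusted p = 0.0102) and Klf4 (adjusted p = 0.0438). Klf2, with -0.38 (SE 0.23), and Tfcp2l1, with -0.31 (SE 0.24), gave no difference past the threshold, and neither did Klf5 (0.21, SE 0.25) or Zfp42 (0.16, SE 0.23). These values and their order moved with single libraries. Without Dax1KO replicate 1 in LIF/serum Prdm14 had 0.78 and Tbx3 0.64. Klf2 had -0.57 without control replicate 1 in LIF/serum and -0.18 without replicate 2, Tfcp2l1 had -0.07 and -0.53 without the same libraries, and Prdm14 had 0.49 without control replicate 2 in 2i/LIF. Klf5 ran from -0.02 to 0.42 and Zfp42 from -0.10 to 0.39 as libraries were left out. The Tbx3 difference was 1.33 without Dax1KO replicate 2 in LIF/serum (adjusted p = 0.0442) and 0.64 without replicate 1 (adjusted p = 0.156).

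The Dax1KO libraries in LIF/serum differed from each other across the set. Replicate 1 was above replicate 2 for 6 of the 7 genes, all but Prdm14, and the summed level of the 7 was 2022 against 1557 CPM. In the other groups the sums lay closer. They were 2574 and 2372 CPM for control and 2388 and 2517 for Dax1KO in 2i/LIF, and 1935 and 1959 for control in LIF/serum. Close sums can hide gaps of single genes in opposite directions. In control cells in LIF/serum Klf2 had 368 and 487 CPM and Tfcp2l1 252 and 185, their widest gaps (1.33-fold and 1.36-fold). The widest gap of Prdm14, 1.35-fold, was in control cells in 2i/LIF. The origin of these gaps was not tested.

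The media were compared within each cell line on the same levels. In control cells 4 of the 7 genes were higher in 2i/LIF and 0 lower (57.1%), beside 36.8% of all tested genes, 20.3% higher and 16.5% lower. Prdm14 was 3.49-fold higher in 2i/LIF (log2 1.80, SE 0.18, adjusted p = 0.000214), Tfcp2l1 2.74-fold (1.45, SE 0.17, adjusted p = 0.000543), Tbx3 2.48-fold (1.31, SE 0.20, adjusted p = 0.00189) and Klf4 1.66-fold (0.74, SE 0.14, adjusted p = 0.00439). These 4 calls held under all 15 alternatives. Klf2 had a log2 difference of 0.0049 between the media (SE 0.16, adjusted p = 0.985), and Klf5 had 0.27 (SE 0.17, adjusted p = 0.258). Zfp42 lay the other way, lower in 2i/LIF by a log2 difference of -0.39 (SE 0.16) that did not pass (adjusted p = 0.0924), but passed without Dax1KO replicate 1 or 2 in LIF/serum (adjusted p = 0.0363 and 0.0369).

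In Dax1KO cells 2 of the 7 genes were higher in 2i/LIF and 1 lower (42.9%), beside 28.9% of all tested genes, 15.2% higher and 13.7% lower. Tfcp2l1 was 3.40-fold higher in 2i/LIF (log2 1.77, SE 0.18, adjusted p = 0.000319) and Prdm14 2.08-fold (1.06, SE 0.17, adjusted p = 0.00317). Zfp42 was 1.46-fold lower (-0.55, SE 0.16, adjusted p = 0.0357). The Zfp42 call was lost without control replicate 1 in 2i/LIF (adjusted p = 0.0507), without either Dax1KO library in 2i/LIF (0.131 and 0.173) and without Dax1KO replicate 1 in LIF/serum (-0.28, 0.206). It was also lost without the filter on low counts (0.0753) and in a fit of Dax1KO cells alone (0.0502), and held under 9 of 15 alternatives. Klf4, which differed between media in control cells, had 0.07 here (SE 0.14, adjusted p = 0.763), and Tbx3 had 0.29 (SE 0.20, adjusted p = 0.323), which became 0.68 without Dax1KO replicate 1 in LIF/serum (adjusted p = 0.0224) and -0.01 without replicate 2. Klf2 had 0.39 (SE 0.16, adjusted p = 0.109) and Klf5 0.06 (SE 0.17, adjusted p = 0.819).

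**Figure D5:**
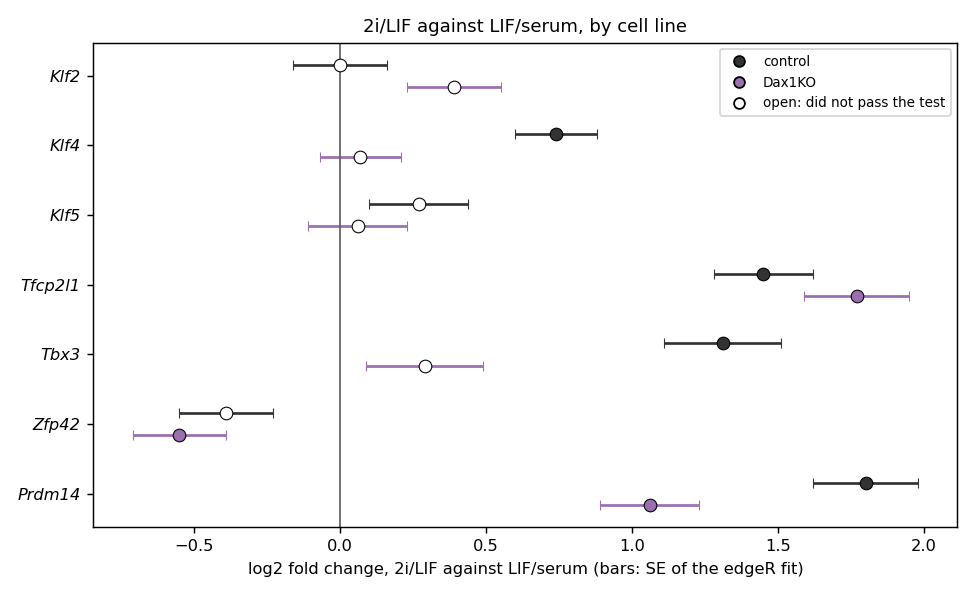
Log2 fold change of 2i/LIF against LIF/serum for each gene in control and in Dax1KO cells, with bars of 1 SE of the edgeR fit and open points for changes that did not pass the test. Tfcp2l1 and Prdm14 are filled and above 0 in both cell lines, while Klf4 and Tbx3 are filled in control and open in Dax1KO.

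The libraries of the media did not overlap for 6 members in control and 4 in Dax1KO, beside 68.6% and 68.9% of all tested genes. The comparisons of media and of cell lines use the same libraries, so a low control level in LIF/serum, as for Klf4 and Tbx3, enters the knockout comparison in that medium and the comparison of media in control cells alike. The difference between cell lines in the effect of the medium is the same quantity, with its sign turned, as the difference between media given above, and passed for none of the 7 genes by edgeR.

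Relatives of the 7 factors were read beside the shares of all tested genes called, 3.16% in 2i/LIF and 14.7% in LIF/serum. Of 14 other Krüppel-like factor genes, 1 rose and 0 fell in Dax1KO cells in 2i/LIF, and 2 rose and 1 fell in LIF/serum. Klf15, known for its role in gluconeogenesis and amino acid metabolism, had 24.3 and 19.0 CPM in control and 40.1 and 44.2 in Dax1KO cells in 2i/LIF, and 625 and 831 counts against 1474 and 1335 in LIF/serum. It rose in both media (0.96, SE 0.19, adjusted p = 0.0380, and 0.81, SE 0.19, adjusted p = 0.0274). In LIF/serum Klf11 rose (0.54, SE 0.12, adjusted p = 0.0281) and Klf7 fell (-0.84, SE 0.18, adjusted p = 0.0229). In 2i/LIF 0 of the 14 were called without any library of that medium or either Dax1KO library in LIF/serum. In LIF/serum 0 were called without control replicate 1 or either Dax1KO library, and 1 without either Dax1KO library in 2i/LIF.

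Of 15 relatives of the other 4 factors (grainyhead-related, T-box, YY1 and PRDM genes), 0 passed in 2i/LIF, where 1 did without Dax1KO replicate 2, and 3 rose and 1 fell in LIF/serum. Tbx2, the closest relative of Tbx3, had 11 counts in both control libraries and 30 and 26 in Dax1KO in LIF/serum (2.30-fold, log2 SE 0.29, adjusted p = 0.0305), a call that DESeq2 did not make, against 137 to 250 counts in 2i/LIF. Tfcp2, a relative of Tfcp2l1, rose from 15.8 and 15.1 to 30.3 and 25.0 CPM in LIF/serum (0.84, SE 0.15, adjusted p = 0.0107), as did Grhl3 (0.70, SE 0.12, adjusted p = 0.0111). Prdm1, which acts with Prdm14 in germ cell specification, fell from 1133 and 1034 to 690 and 654 counts (-0.83, SE 0.18, adjusted p = 0.0220). The 4 called in LIF/serum were 1 without either Dax1KO library and 2 without control replicate 2 of that medium.

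Partners of the network were read beside 3.16% (2i/LIF) and 14.7% (LIF/serum) of all tested genes called in Dax1KO cells. Among the 11 partners (Oct4, Sox2, Nanog, Esrrb and others), 1 fell in 2i/LIF and 2 fell in LIF/serum, and 0 rose. Leaving out any library of 2i/LIF, or either Dax1KO library in LIF/serum, left 0 in 2i/LIF, and leaving out either Dax1KO library in 2i/LIF, or Dax1KO replicate 2 in LIF/serum, left 1 in LIF/serum. Nr5a2, a nuclear receptor that binds Oct4 regulatory sequence, had 82.6 and 82.8 CPM in control and 48.4 and 46.0 in Dax1KO cells in 2i/LIF, and 97.0 and 76.8 against 37.2 and 33.1 in LIF/serum. It fell in both (-0.81, SE 0.14, adjusted p = 0.0276, and -1.30, SE 0.14, adjusted p = 0.00244). Gbx2, a homeobox gene downstream of STAT3, fell in LIF/serum from 80.2 and 61.7 to 42.7 and 25.2 CPM (-1.06, SE 0.25, adjusted p = 0.0285). Between media, Nanog was 2.62-fold higher in 2i/LIF in control (1.39, SE 0.10, adjusted p = 7.44e-05) and Gbx2 9.84-fold lower (-3.30, SE 0.27, adjusted p = 0.000103). In control 1 of the 11 was higher and 4 lower in 2i/LIF, and in Dax1KO 3 were higher and 4 lower, beside 36.8% and 28.9% of all tested genes called. The 7 called in Dax1KO were 4 without Dax1KO replicate 2 of either medium, and 4 to 8 over all libraries left out.

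Genes of the signalling branches that feed the network were taken in 3 lists. They were read beside the shares of all tested genes called in Dax1KO cells, 3.16% in 2i/LIF and 14.7% in LIF/serum. Of 5 genes of the LIF-STAT3 branch, 0 passed in Dax1KO cells in 2i/LIF and 1 rose in LIF/serum. This was Socs3, the feedback inhibitor of LIF signalling, which had 157 and 181 CPM in control and 230 and 302 in Dax1KO (0.66, SE 0.15, adjusted p = 0.0243). It did not pass without either Dax1KO library in 2i/LIF, without control replicate 1 or without Dax1KO replicate 2 in LIF/serum. Jak1 and Pim1 were the 2 of the 5 that were higher in 2i/LIF in both cell lines.

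Of 5 beta-catenin targets, 0 passed in Dax1KO cells in 2i/LIF, beside 3.16% of all tested genes. In LIF/serum, where 14.7% passed, Nkd1 rose (1.64, SE 0.20, adjusted p = 0.00382) and Sp5 fell (-1.65, SE 0.44, adjusted p = 0.0423). Between media (2i/LIF minus LIF/serum) the 5 had a median log2 difference of -0.53 in control and 0.36 in Dax1KO. Over all tested genes it was 0.01 in each. In 2i/LIF 2 targets were higher and 1 lower in control, and 1 higher and 1 lower in Dax1KO. The lower gene was Lef1 in each, and 36.8% and 28.9% of all tested genes were called. The 3 in control were 5 without control replicate 1 in 2i/LIF and 2 without replicate 2, and the 2 in Dax1KO were 1 without Dax1KO replicate 1 in LIF/serum and 3 without any control library. All 6 MEK-ERK targets were lower in 2i/LIF in both cell lines, with a median log2 difference of -3.44 in control and -3.13 in Dax1KO, beside 0.01 over all tested genes in each. Dusp6, an ERK phosphatase, had 66.8 and 59.1 CPM in control cells in LIF/serum and 2.40 and 2.56 in 2i/LIF. In Dax1KO cells, 2 of the 6 rose and 1 fell in 2i/LIF, beside 3.16% of all tested genes called. In LIF/serum 1 rose and 2 fell, beside 14.7%. Etv4, an ETS factor, rose in both (0.75, SE 0.13, adjusted p = 0.0266, and 1.04, SE 0.13, adjusted p = 0.00345). In 2i/LIF 0 of the 6 were called without any of the 4 libraries of that medium, and in LIF/serum 1 or 2 without any library. The 2 beta-catenin targets called in LIF/serum became 1 without any library of that medium or either Dax1KO library in 2i/LIF.

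The 5 genes that Prdm14 is known to repress were looked at beside it. In control cells 3 of them were lower in 2i/LIF and 1 was higher, beside 16.5% and 20.3% of all tested genes. Prdm14 was itself higher in 2i/LIF, and its part in these differences was not tested. Dnmt3l, a cofactor of de novo methylation, had 414 and 478 CPM in LIF/serum and 56.0 and 111 in 2i/LIF (-2.42, SE 0.29, adjusted p = 0.000541), and Dnmt3b was 3.47-fold lower in 2i/LIF (-1.79, SE 0.18, adjusted p = 0.000230). Fgfr1, a receptor of the FGF signal, lay the other way, with 125 and 111 CPM in LIF/serum and 243 and 240 in 2i/LIF. In Dax1KO against control, 0 of the 5 passed in either medium by edgeR or by DESeq2. Over all genes 3.16% were called in 2i/LIF and 14.7% in LIF/serum by edgeR, and 6.30% and 20.2% by DESeq2. With such shares 0 of 5 does not set these genes apart. With at least 10 counts in every library or counts divided by 3, 1 of them passed in LIF/serum. In 2i/LIF Dnmt3b had 82.3 and 83.7 CPM in control and 127 and 103 in Dax1KO, and Dnmt3a lay the other way with 46.4 and 56.1 against 39.1 and 25.0.

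Markers of other cell types were read beside these results. Of 6 primitive endoderm markers 5 rose in Dax1KO cells in LIF/serum (3 without control replicate 2 or either Dax1KO library of that medium), with a median of 1.41. Their summed level was 107 to 149 CPM in control and 334 to 396 in Dax1KO, and it was 28.8 to 37.9 in 2i/LIF. Dab2 had 80.3 and 54.2 CPM in control and 225 and 193 in Dax1KO in LIF/serum, and it was the 1 marker of the 6 that passed in 2i/LIF (1.28, SE 0.26, adjusted p = 0.0423), where their median was 0.13. That call was lost without any library of 2i/LIF or either Dax1KO library in LIF/serum, and Gata6 lay lower there, with 6.55 and 7.49 CPM in control and 2.17 and 4.23 in Dax1KO (adjusted p = 0.0951). Of 5 trophectoderm markers, 2 rose in each medium, and the sum went from 42.2 to 59.3 CPM in control to 100 to 106 in Dax1KO in 2i/LIF and from 68.8 to 70.8 up to 103 to 121 in LIF/serum. Cdx2 was at 0 counts in all 4 libraries in 2i/LIF, and the called markers there were the keratins Krt8 and Krt18. Gata3 lay lower in Dax1KO there, with 3.60 and 3.16 CPM in control and 1.03 and 1.46 in Dax1KO (adjusted p = 0.123). The 2 calls in 2i/LIF became 0 without control replicate 1 or either Dax1KO library of that medium and 1 without any other library, and the 2 in LIF/serum became 1 without any library of that medium.

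Of 5 formative markers, 0 passed in 2i/LIF and Zic2 fell in LIF/serum (-2.25, SE 0.24, adjusted p = 0.00210). Over all tested genes 3.16% passed in 2i/LIF and 14.7% in LIF/serum. The formative sums were 84.8 to 99.7 CPM in control and 54.1 to 67.5 in Dax1KO in 2i/LIF. In LIF/serum they were 93.5 to 122 against 74.5 to 90.0. Fgf5 was at 0 counts in all libraries in 2i/LIF. Of 6 fibroblast markers 5 were tested, of which 1 rose and 1 fell in 2i/LIF and 3 rose in LIF/serum. The 2 calls in 2i/LIF became 0 without control replicate 2 or either Dax1KO library of that medium, and 1 without control replicate 1 or either Dax1KO library in LIF/serum. Their sum was 58.9 to 72.4 CPM in control and 50.4 to 52.2 in Dax1KO in 2i/LIF, and 21.2 to 24.0 against 55.8 to 60.1 in LIF/serum, with Col3a1 at 0 in both libraries of 3 groups. The part of these markers in the changes of the 7 genes was not tested.

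The genes most like each factor across the libraries were found by the Pearson correlation of log2 CPM over the 8 libraries, which fall into 4 groups and are not independent points, and the values are a description. The closest to Tfcp2l1 was Gpnmb (r = 0.995), which had a mean of 6.13 CPM in control and 19.3 in Dax1KO cells in 2i/LIF and 0.723 and 1.45 in LIF/serum. The closest to Prdm14 was Mtap (r = 0.996), with means of 149 and 129 CPM in 2i/LIF and 111 and 108 in LIF/serum, a much narrower range than that of Prdm14. Slc35c2 was closest to Klf4 (r = 0.991), with 22.5 CPM in control cells in LIF/serum and 33.2 to 33.7 in the other groups. Klf2 was followed most closely by Fam50a (r = 0.977), Tbx3 by Exd2 (r = 0.984), Zfp42 by the pseudogene Gm16332 (r = 0.979), which had under 1 CPM, and Klf5 by Gm27631 (r = 0.982), also under 1 CPM.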

How the data were processed

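Messenger RNA of 8 ESC libraries was sequenced on an Illumina instrument. The authors deposited raw counts per gene, 1 table for each library, and their processing notes name HISAT2 2.0.4, DESeq2 and mm10. The counting tool, its strand setting and the annotation are not given in the sources used here. Libraries were grouped by their labels. Symbols and coordinates came from GENCODE M21 (GRCm38). Low counts piled up at 3 and 6. In each library more genes had 3 counts (1348 to 1587) than 2 (823 to 940), and more had 6 (686 to 753) than 5 (317 to 371), so a count may not be a single read.

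Counts were filtered with filterByExpr, which left 20749 genes, scaled by TMM (factors 0.96 to 1.04) and fitted with 4 group means in edgeR 4.0.16 (R 4.3.3). Genes were called at an adjusted p (Benjamini-Hochberg) up to 0.05 with a change of 1.2-fold or more, and for the difference between media by the adjusted p only. The steps were tested on simulated data. The 7 members and the gene lists were chosen with earlier results of these data known. Named beside the members are the Dax1 gene, up to 3 called genes of each list with the largest change, the 3 genes most correlated with each member (log2 CPM, prior count 2), and examples picked after their values were seen. The motifs were also picked then. Similar transcripts were sought with blastn 2.17.0 at 95% identity. The alternatives were DESeq2 1.42.0, RLE factors, no filter, at least 10 counts in every library, counts divided by 3, a separate fit for each medium or cell line, the replicate number as a block, and each library left out in turn.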

Additional observations from a re-analysis of the deposited data

Results flagged for a closer look

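Tbx3 stood out because both Dax1KO libraries of a medium were below the controls in 2i/LIF and above them in LIF/serum. In LIF/serum they had 160 and 99.5 CPM, the widest gap between libraries of a group for any member. Counts of the overlapping antisense Tbx3os1 also rose there, from 68 and 93 to 164 and 120, and its part was not tested. For Tbx3 the difference of the log2 fold changes was 1.02 (LIF/serum minus 2i/LIF). The edgeR test of this difference did not pass after adjustment over all tested genes (adjusted p = 0.107), whereas DESeq2 called it (adjusted p = 0.0102). Over the 14 alternatives the difference stayed above 0, from 0.64 without Dax1KO replicate 1 in LIF/serum to 1.33 without replicate 2, with adjusted p from 0.0102 to 0.294.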

How the results depend on the processing

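Of the members' 238 values under alternatives that kept all libraries, 216 kept their direction and their side of the threshold, 10 passed newly, 7 no longer passed and 5 turned direction. The 5 were the log2 difference of Klf2 between media in control cells, which was 0.0049 in the reported fit and -0.0025 with DESeq2, -0.02 with RLE factors, -0.03 with at least 10 counts in every library, -0.04 with counts divided by 3 and -0.01 with separate fits. Of the 280 values with 1 library left out, 243 kept direction and side, 9 passed newly, 18 no longer passed and 10 turned direction, all of the latter values that did not pass. Over the left-out libraries, Klf2 in control cells ran from -0.18 to 0.20 between media. In Dax1KO cells between media, Klf4 ran from -0.07 to 0.21, Klf5 from -0.14 to 0.30 and Tbx3 from -0.01 to 0.68. For Dax1KO against control in LIF/serum, Klf5 ran from -0.12 to 0.32 and Prdm14 from -0.24 to 0.01, and for the difference of the knockout effect Klf5 ran from -0.02 to 0.42 and Zfp42 from -0.10 to 0.39.

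The count of members called in 2i/LIF (Dax1KO against control) was 2 as reported, 4 with DESeq2, 1 with RLE factors, 0 without a filter on low counts and 0 to 3 with a library left out. In LIF/serum it was 4 with DESeq2. For the difference between media it was 2 with DESeq2 and 0 to 1 with a library left out. All tested genes called numbered 656 in 2i/LIF, against 1277 with DESeq2, 121 without the filter and 38 to 673 with a library left out. In LIF/serum they numbered 3041, against 1842 without the filter, 1743 with a separate fit and 728 to 2496 with a library left out. For the difference between media they numbered 596, against 1296 with DESeq2, 119 without the filter and 36 to 344 with a library left out. Between media they numbered 7641 in control, with 5057 to 7120 when a library was left out, and 5999 in Dax1KO, with 2986 to 6286. A lone library left in a group was assumed to vary like the others, and the cause of the changes under the other alternatives was not tested.

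The replicate numbers were not shown to pair the samples. Deviations of same-numbered libraries correlated at 0.0796 between the groups in 2i/LIF and 0.108 between those in LIF/serum. With the replicate block, 573 genes were called in 2i/LIF, 3218 in LIF/serum, 552 for the difference between media, and 7754 and 6075 between media in control and Dax1KO. Member counts stayed at 2, 2, 0, 4 and 3, but in 2i/LIF Tfcp2l1 passed (0.81, adjusted p = 0.0379) and Klf2 did not (-0.76, adjusted p = 0.0524). With 2 libraries in each group, small changes could have been missed.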
